A study of Homo sapiens with 36 samples.

Results

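The occupancy of macroH2A1 and of macroH2A1.2 was set side by side in K562 cells treated with aphidicolin. K562 is an established human chronic myeloid leukaemia line. It carries the Philadelphia chromosome, a fusion of chromosomes 9 and 22, in extra copies. The libraries compared were the 4 whose labels name aphidicolin and a macroH2A antibody, out of 36 libraries in the series, of which 22 have a list of enriched regions. Replicates 1 and 2 of macroH2A1 were precipitated with α-macroH2A1 (Millipore 07-219), and replicates 1 and 3 of macroH2A1.2 with α-macroH2A1.2 (Millipore MABE61). Both groups were K562 carrying no hairpin in the labels. The treatment label names aphidicolin with no dose or time, and the number 0.5 in the macroH2A1 titles has no unit. The study mapped these marks together with the damage mark γH2AX, with and without replication stress and macroH2A loss.

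MacroH2A1 replaces canonical H2A in some nucleosomes and ends in a bulky globular macro domain, and alternative splicing of its transcript gives the isoforms macroH2A1.1 and macroH2A1.2. The domain of macroH2A1.1 binds ADP-ribose, which that of macroH2A1.2 does not. MacroH2A is known for broad domains in silent chromatin and on the inactive X chromosome, and macroH2A1.2 for a part in the response to replication stress. Aphidicolin inhibits replicative DNA polymerases, so that forks slow or stall, and γH2AX, the phosphorylated H2AX variant, marks damaged DNA. The label of the first antibody names no isoform.

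The antibodies came with different styles of sample title. The macroH2A1 libraries belong to title set 1 and the macroH2A1.2 libraries to title set 2, so the antibody and any other difference between these sets cannot be told apart. Both sets also hold γH2AX libraries made with a single antibody, and their values are given beside the results. Reads in islands, in units of 1e6, were 44.6 and 48.7 in the macroH2A1 lists and 12.5 and 10.2 in the macroH2A1.2 lists, a ratio of 4.12. The total number of reads sequenced is unknown here, and its part in the differences below was not tested. Whether replicates come from different cultures is not in the labels, so each p-value measures only library-to-library spread, possibly technical.

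MacroH2A1 islands, the enriched stretches of the deposited lists, took up more of the genome and were longer at the upper end, while island number and median width did not separate the antibodies. Islands covered 439 Mb in macroH2A1 replicate 1 and 438 Mb in replicate 2, against 318 Mb in macroH2A1.2 replicate 1 and 307 Mb in replicate 3. The groups did not overlap, and their means were 439 ± 0.0286 Mb and 312 ± 7.89 Mb (SD, n = 2 each), a ratio of 1.40. The exact permutation test gave p = 0.33, two-sided, which is the smallest value that 2 libraries against 2 allow. The lists held 41517 and 45065 macroH2A1 islands and 45244 and 32482 macroH2A1.2 islands. These ranges overlapped, and the ratio of geometric means was 1.13 (exact permutation p = 1, n = 2 each). Median island width was 6.4 and 5.6 kb for macroH2A1 and 4.6 and 6.4 kb for macroH2A1.2, so that the highest value occurred once in each group (ratio 1.1, exact permutation p = 1).

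Wide islands made up a larger share of the macroH2A1 length. Islands of at least 20 kb held 40.3 ± 0.432% of macroH2A1 length and 27.3 ± 3.17% of macroH2A1.2 length (SD, n = 2, exact permutation p = 0.33). They made up 10.2 ± 0.918% of macroH2A1 islands and 6.31 ± 1.99% of macroH2A1.2 islands. The lists held 858 and 887 macroH2A1 islands of 50 kb or more, against 308 and 338 for macroH2A1.2. The longest single island was 703.4 kb in macroH2A1 replicate 1 and 681.2 kb in macroH2A1.2 replicate 1, so the extremes were of similar length. Read density inside islands was 102 and 111 reads per kb for macroH2A1 and 39.4 and 33.4 for macroH2A1.2 (ratio 2.93, exact permutation p = 0.33), and these densities are not scaled to library size.

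**Figure D1:**
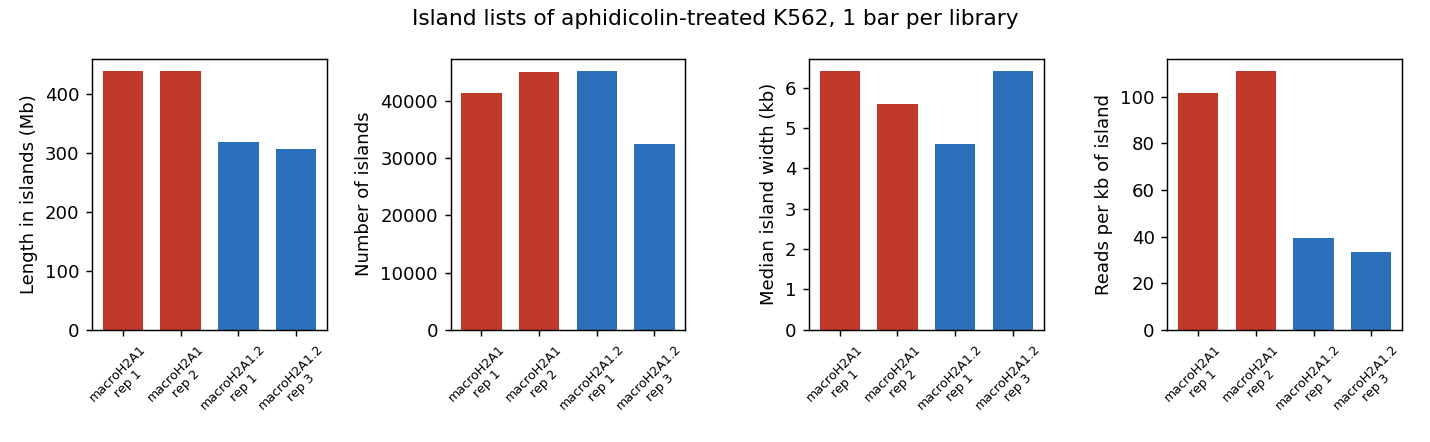
Length in islands (Mb), number of islands, median island width (kb) and reads per kb of island, with 1 bar for each of the 4 aphidicolin libraries, red for macroH2A1 and blue for macroH2A1.2. Length and read density separate the antibodies, with 438 Mb as the lower macroH2A1 value and 318 Mb as the higher macroH2A1.2 value, while number and median width overlap.

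Most macroH2A1.2 sequence lay inside macroH2A1 islands, and the converse held for a smaller share. Over the 4 pairs of libraries, 79.6 to 81.8% of macroH2A1.2 length was inside the islands of a macroH2A1 list, which covered 14.4% of the genome span. In the other direction, 55.7 to 59.3% of macroH2A1 length was inside a macroH2A1.2 list, which covered 10.1 or 10.5% of the span. Of all bases in either list of a pair, 72.5% were in both for the macroH2A1 replicates and 59.2% for the macroH2A1.2 replicates. Between antibodies that share was 50.6 ± 1.64% (SD over 4 pairs that share libraries, range 48.7 to 52.4%). Every pair across antibodies shared less than either replicate pair. With all lists trimmed to equal covered length the shares were 73.3% and 59.9% within antibodies and 49.2 to 52.8% between them, and 66.0 to 69.1% of each list then lay inside the other.

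Bases were sorted into classes by the lists that held them. Shared sequence, inside islands of all 4 lists, came to 194.6 Mb, or 33.9% of the 574.5 Mb in any list. MacroH2A1-specific sequence, in both macroH2A1 lists and neither macroH2A1.2 list, came to 96.3 Mb (16.8%). MacroH2A1.2-specific sequence, defined the other way round, came to 15.7 Mb (2.74%). The remaining bases were found in only some libraries of an antibody, including 77.6 Mb in both macroH2A1 lists and 1 macroH2A1.2 list. Of the 368.5 Mb that the macroH2A1 replicates had in common, 52.8% was shared and 26.1% specific. Of the 232.2 Mb that the macroH2A1.2 replicates had in common, 83.8% was shared and 6.78% specific. At equal covered length the classes changed to 164.3 Mb shared, 47.4 Mb macroH2A1-specific and 38.8 Mb macroH2A1.2-specific, so the macroH2A1-specific class was then nearer in size to the macroH2A1.2-specific class. Without the windows that also held an island after the hairpin against macroH2A1.2, a comparison added after the data were seen, the classes were 157.6, 85.3 and 12.3 Mb.

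Specific sequence was made of shorter pieces than shared sequence. The classes were set base by base, so a piece can be part of an island. Differences at island edges also count as specific, so these are not widths of islands. The 36550 shared regions had a median width of 3.4 kb, the 36252 macroH2A1-specific regions 2 kb and the 9639 macroH2A1.2-specific regions 1 kb. Regions of at least 20 kb numbered 1152, 48 and 10 in these classes. Part of the specific length lay in stretches that all 4 lists touched. When overlapping islands of the 4 lists were joined into 41907 loci, 13621 loci (32.5%) were touched by all 4 lists, with a median width of 17.4 kb. Those loci held 48.6% of the macroH2A1-specific length and 52.7% of the macroH2A1.2-specific length. They spanned 392.9 of the 574.5 Mb in any list, a larger share than for either specific class. Loci with islands from both macroH2A1 lists and none from macroH2A1.2 numbered 7058, spanned 51.2 Mb and had a median width of 6 kb. The converse loci numbered 1423, spanned 10.5 Mb and had a median width of 6.2 kb.

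Within the loci touched by all 4 lists, macroH2A1 filled more of the locus. Its islands covered 86.3% and 85.4% of their length, and macroH2A1.2 islands covered 68.6% and 69.3%. A locus held on average 1.81 and 1.88 macroH2A1 islands, against 2.42 and 1.97 for macroH2A1.2. Both macroH2A1 lists were longer than both macroH2A1.2 lists in 7007 loci (51.4%), the reverse held in 1466 (10.8%), and the remaining 5148 (37.8%) overlapped. The median ratio of covered length was 1.19.

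Islands of 20 kb or more were shared more often than those under 5 kb. An island was counted as shared with a list of the other antibody when at least 50% of its length lay inside islands of that list, and values were averaged over both lists. Among macroH2A1 islands under 2 kb, 40.6% in replicate 1 and 34.7% in replicate 2 were shared. Among those of 50 kb or more, 93.7% and 93.4% were shared. MacroH2A1.2 islands under 2 kb were shared in 64.1% and 64.0% of cases, those of 20 to 50 kb in 98.6% and 97.9%, and those of 50 kb or more in 97.6% and 96.3%, slightly below the class before. In each class of width, both macroH2A1.2 lists lay above both macroH2A1 lists. Over all widths, 47.5 ± 3.36% of macroH2A1 islands were shared with macroH2A1.2, and 77.5 ± 1.12% of macroH2A1.2 islands with macroH2A1 (SD over 4 pairs). The same measure between replicates was 82.3 and 79.7% for macroH2A1, and 64.0 and 76.1% for macroH2A1.2. At equal covered length the shares across antibodies were 59.6 and 56.6%, and the order reversed. Island size itself was not corrected for.

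**Figure D2:**
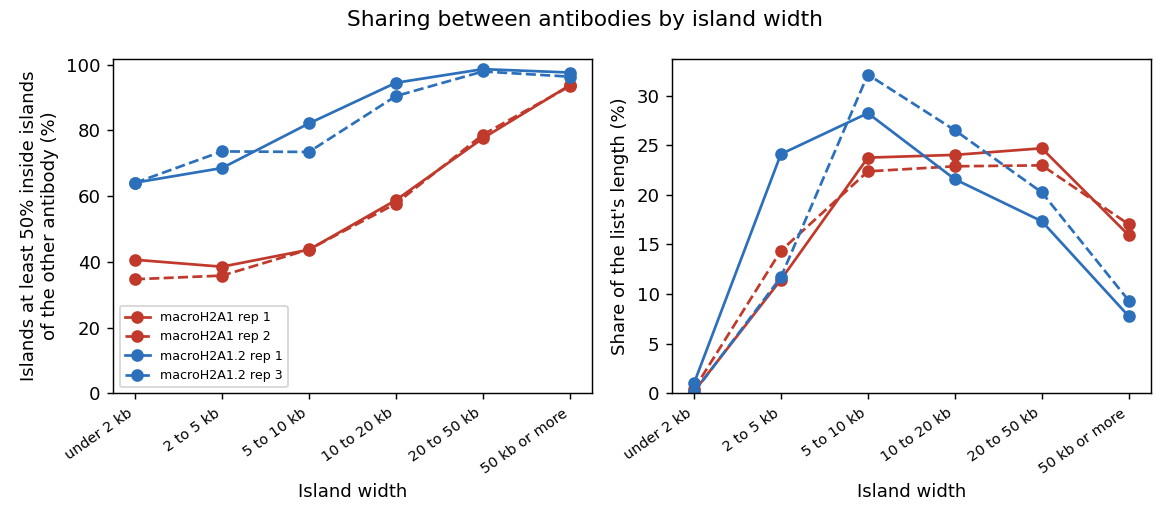
Left, percent of islands lying at least 50% inside islands of the other antibody, by island width. Right, percent of each list's length held by the same classes of width, with red for macroH2A1, blue for macroH2A1.2, solid lines for replicate 1 and dashed lines for the other replicate. The shared percent of macroH2A1 islands goes from 40.6 and 34.7 under 2 kb to 93.7 and 93.4 at 50 kb or more, below macroH2A1.2 in each class.

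Dense islands were also shared more often. In the lowest decile of macroH2A1 islands by reads per kb, 23% of islands were shared in each replicate, and in the highest decile 81.2 and 79.3%. For macroH2A1.2 the values were 49.4 and 45.2% in the lowest decile and 90.8 and 94.8% in the highest. Islands with no base in either list of the other antibody were less dense than their list as a whole. They numbered 11706 (28.2%) and 13998 (31.1%) for macroH2A1, with 0.834 and 0.821 times the mean density of their lists and median widths of 4.8 and 4.2 kb. For macroH2A1.2 they numbered 5728 (12.7%) and 3233 (9.95%), with 0.824 and 0.910 times the mean density and median widths of 3.4 and 5.2 kb. Islands lying mostly inside both lists of the other antibody stood above the mean, at 1.1 and 1.11 times for macroH2A1 and 1.04 times in each macroH2A1.2 list. Density and width were not separated in these counts.

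The longest shared regions lay on chromosomes 22, 9 and 1. The longest ran over chromosome 22 from 22901801 to 23412400 (hg19, 510.6 kb), the next over chromosome 22 from 22337801 to 22620800 (283 kb) and the third over chromosome 9 from 133722601 to 134001400 (278.8 kb). After these came chromosome 1 from 110956401 to 111148800 (192.4 kb) and chromosome 22 from 19510601 to 19701600 (191 kb). The islands over the chromosome 22 region of 510.6 kb were 703.4 and 621.4 kb long for macroH2A1 and 620.4 and 510.8 kb for macroH2A1.2. Their reads were 4.69 and 5.23 times as dense as the mean of the list for macroH2A1 and 6.14 and 5.96 times for macroH2A1.2. Islands over the chromosome 1 region stood at 1.87 and 1.76 times for macroH2A1 and 1.75 and 1.76 times for macroH2A1.2. Each count belongs to a whole island, so the density inside a region is not known. The 4 regions on chromosomes 9 and 22 were at least 98.4% covered in the list after the hairpin against macroH2A1.2 (sh-mH1.2), and the chromosome 1 region 6.86%. That list covered 0.781% of the span. No label says whether the deposited calls were corrected for DNA copy number, and its part in these regions was not tested.

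The 2 longest macroH2A1-specific regions flanked the chromosome 9 region just named. They ran from 134019601 to 134151800 (132.2 kb) and from 133607201 to 133711200 (104 kb). In the macroH2A1 lists a single island covered both flanks and the centre, with a width of 544.6 kb in replicate 1 and 544.8 kb in replicate 2. The macroH2A1.2 island there was 278.8 kb in replicate 1 and 308.4 kb in replicate 3. Its reads were 7.07 and 6.29 times as dense as the mean of the list, against 3.41 and 3.56 times for macroH2A1. The control hairpin (sh-RFP), precipitated with the macroH2A1.2 antibody in untreated cells, gave an island of 544.6 kb, and sh-mH1.2 one of 545.8 kb. The long form of the island was therefore also seen with the macroH2A1.2 antibody. The untreated macroH2A1.2 lists of set 2 covered 48.7 and 59.9% of the 132.2-kb flank and 81.7 and 100% of the 104-kb flank.

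The next macroH2A1-specific regions lay on chromosome 1 from 145015201 to 145093000 (77.8 kb), on chromosome 2 from 92264401 to 92326200 (61.8 kb) and on chromosome 9 from 130966801 to 131012400 (45.6 kb). The islands over the chromosome 2 region were 11.1 and 10.9 times as dense in reads as the macroH2A1 lists as a whole. Those of sh-RFP and sh-mH1.2 there had 20.2 and 12.1 times the mean density of their lists. All 5 longest macroH2A1-specific regions were fully covered after sh-RFP. In untreated cells the macroH2A1.2 lists covered 97.8 to 100% of the chromosome 1 region and the 45.6-kb chromosome 9 region and 0% of the chromosome 2 region. Both untreated macroH2A1 lists also covered 0% of the chromosome 2 region.

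The longest macroH2A1.2-specific regions lay on chromosomes 13, 22, 1 and 21. Its longest region ran from 91321001 to 91999400 (678.4 kb) and another from 92088201 to 92191600 (103.4 kb), both on chromosome 13. The others lay on chromosome 22 from 17146601 to 17260000 (113.4 kb), chromosome 1 from 142891001 to 142960600 (69.6 kb) and chromosome 21 from 10108601 to 10163400 (54.8 kb). All 5 of these longest regions were 100% covered in the sh-mH1.2 list and 0% covered in the sh-RFP list. Hence these long regions, unlike the chromosome 9 flanks, were listed after knockdown of macroH2A1.2 and missing from its control. No mask for regions of artefact signal was applied here, and whether these are such regions was not tested. On chromosome 13 the island was 681.2 kb in macroH2A1.2 replicate 1, 678.4 kb in replicate 3 and 1134.8 kb after sh-mH1.2, with 83.3, 77.0 and 88.1 reads per kb. MacroH2A1 replicate 1 had an island in the same stretch, in the gap between the chromosome 13 regions, filling 82.6% of a 100-kb window. Both chromosome 13 regions were fully covered by γH2AX in the 4 untreated lists of sets 1 and 2, and not at all in the 2 aphidicolin γH2AX lists of set 1. The aphidicolin γH2AX lists of set 2 covered 0 and 25.7% of the 678.4-kb region and 0% of the 103.4-kb region. In set 3 γH2AX covered 0% of both regions, with and without aphidicolin.

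**Figure D3:**
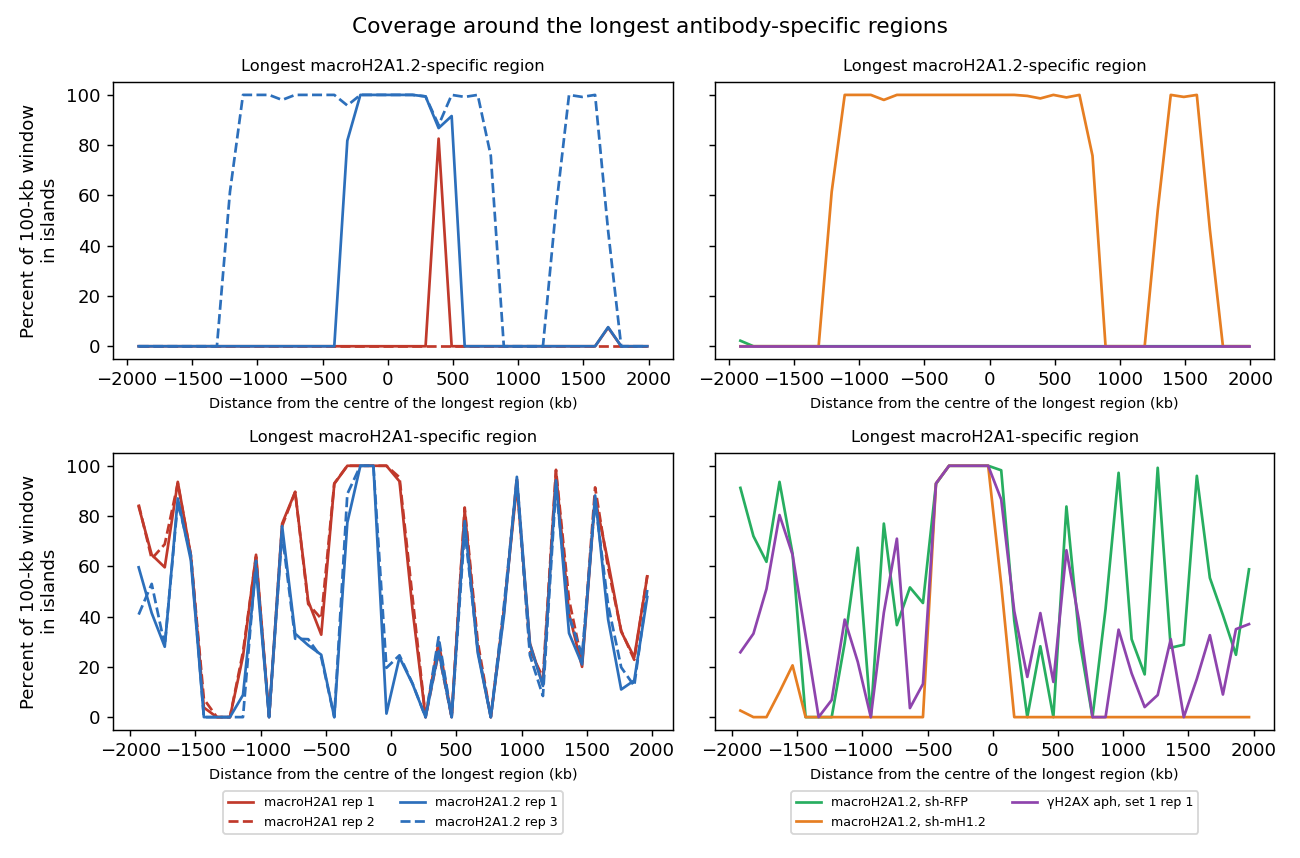
Percent of each 100-kb window inside islands against distance (kb) from the centre of the longest macroH2A1.2-specific region (top, chromosome 13) and the longest macroH2A1-specific region (bottom, chromosome 9), with the 4 aphidicolin libraries on the left and the hairpin libraries and 1 γH2AX library on the right. On chromosome 13 macroH2A1.2 replicate 3 and sh-mH1.2 extend well beyond replicate 1, and sh-RFP stays near 0 at the region, while on chromosome 9 sh-RFP and sh-mH1.2 follow the macroH2A1 outline over the region.

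The pattern of the longest macroH2A1.2-specific regions did not extend to most of the class. Of the 10 macroH2A1.2-specific regions of at least 20 kb, 10 were at least 50% covered after sh-mH1.2 and 1 after sh-RFP. Of all 9639, 1.43% were so covered after sh-mH1.2 and 59.1% after sh-RFP. For the macroH2A1-specific class the values were 0.455% and 57.0%, and for the shared class 1.14% and 81.5%. Among macroH2A1-specific regions of at least 20 kb, 34 of 48 (70.8%) were covered after sh-RFP and 7 (14.6%) after sh-mH1.2. By these counts the few long macroH2A1.2-specific regions and the many short ones differed in the hairpin lists. There was 1 library per hairpin, so no test was made.

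Positions were then compared in windows of 100 kb by the percent of the window inside islands, with a limma fit across the 13234 windows covered in at least 2 of the 4 libraries. At an adjusted p of 0.05, 3449 windows (26.1% of those tested) were higher for macroH2A1 and 219 (1.65%) were higher for macroH2A1.2. At an unadjusted p of 0.05 the counts were 5255 and 573. The groups did not overlap in 8033 windows with macroH2A1 above (60.7%) and in 1551 with macroH2A1.2 above (11.7%). All 4 lists had an island in 9546 windows (72.1%), so both antibodies were present in most tested windows. In the 3449 windows the median coverage was 49.8 and 50.0% for macroH2A1 and 19.0 and 17.0% for macroH2A1.2. In the 219 windows it was 7.6 and 7.2% for macroH2A1 and 28 and 29.4% for macroH2A1.2.

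The balance of calls depended on the length of the lists, and their number also on single libraries. At equal covered length 1185 windows were higher for macroH2A1 and 944 for macroH2A1.2, and the median difference over windows moved from 6.1 to -0.2 percentage points. The share of calls favouring macroH2A1 was 94.0% in the lists as deposited, 55.7% at equal covered length, 61.4% with edgeR on island reads and 56.6% with DESeq2. Of the 3449 windows, 1157 were also called at equal length and 546 changed sign, of which 54 were called higher for macroH2A1.2. Of the 219 windows, 174 were also called and 0 changed sign. With 1 library left out, the lone library of its antibody was taken to vary like the other group. Without macroH2A1 replicate 1 the limma counts were 1373 and 55, and without replicate 2 they were 1103 and 38. Without macroH2A1.2 replicate 1 or replicate 3 no window passed (0 and 0, with 4165 and 452, and 3832 and 311, at an unadjusted p of 0.05). The share of calls favouring macroH2A1 was 96.1 and 96.7% without either macroH2A1 library.

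**Figure D4:**
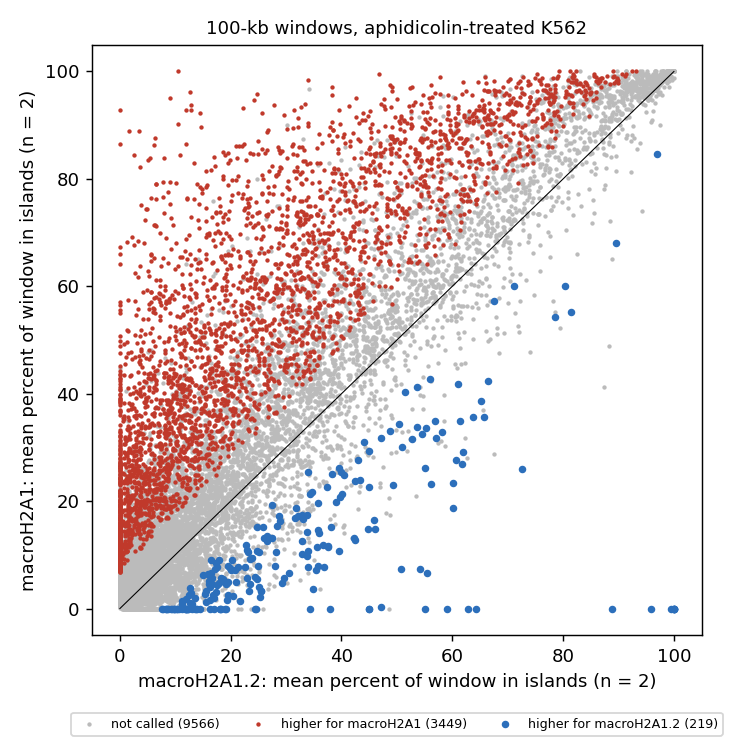
Mean percent of each 100-kb window inside islands for macroH2A1 (vertical axis, n = 2) against macroH2A1.2 (horizontal axis, n = 2), with 1 point for each of 13234 windows and the line of equality. Red marks the 3449 windows higher for macroH2A1 and blue the 219 higher for macroH2A1.2, among them the fully covered chromosome 13 windows at the lower right.

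The largest differences in favour of macroH2A1 were on chromosomes 9, 3, 1, 6 and 10. The window of chromosome 9 from 133600001 to 133700000 was 92.8 and 93.0% covered for macroH2A1 and 0% in both macroH2A1.2 lists (difference 92.9 points, SE 1.42, limma adjusted p = 0.00479). On chromosome 1 the window from 145000001 to 145100000 was 88.0 and 85.0% covered for macroH2A1 and 0% for macroH2A1.2 (limma adjusted p = 0.00906). On chromosome 6 the window from 15100001 to 15200000 was 89.6 and 88.4% covered against 4.2 and 2.6% (limma adjusted p = 0.00753), and that from 14600001 to 14700000 was 88.6 and 80.4% covered against 2.4 and 2.6%. On chromosome 3, 3 windows between 193600001 and 194000000 were 87.4 to 95.6% covered for macroH2A1 and 4.6 to 14.2% for macroH2A1.2. Another chromosome 3 window, from 177400001 to 177500000, was 95 and 82.8% covered against 3.4 and 0%, and its call did not hold at equal length (difference 72.1 points, limma adjusted p = 0.0746). The other two named windows were on chromosome 9 from 134000001 to 134100000 (100 and 100% against 1.4 and 19.6%) and on chromosome 10 from 73700001 to 73800000 (94.4 and 98.0% against 17.0 and 8.2%). In each of these 10 windows the lower macroH2A1 library was above 80% and the higher macroH2A1.2 library below 20%.

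Of the 10 windows with the largest differences in favour of macroH2A1.2, 8 lay on chromosome 13 between 91300001 and 92200000. In 5 of these, from 91400001 to 91900000, both macroH2A1.2 lists covered 100% and both macroH2A1 lists 0% (limma adjusted p = 0.00444 each). Libraries of a group did not vary in these 5 windows (SD 0). Their SE of 1.42 points therefore comes from the spread over all tested windows. All 5 lie inside 1 island of each macroH2A1.2 list, so they are not separate observations. The remaining named windows were on chromosome 1 from 142900001 to 143000000, with 67.8 and 60.6% against 0% (limma adjusted p = 0.00973), and on chromosome 22 from 17200001 to 17300000, with 65.8 and 60.0% against 0% (limma adjusted p = 0.00965). The sh-mH1.2 list covered 67.8 to 100% of these 10 windows and the sh-RFP list 0%. Leaving out the 2280 windows that held an island after sh-mH1.2, an alternative added after the data were seen, gave 3185 and 170 calls.

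Adjoining called windows were joined into runs, a step added after the values were seen. The 3449 windows formed 2004 runs, of which 1254 were single windows and 349 had 3 windows or more. The 219 windows formed 196 runs, of which 180 were single windows and 3 had 3 windows or more. The directions differ in how many windows were called, so these counts do not compare their layout. The longest macroH2A1 run went over chromosome 19 from 42900001 to 43900000, with mean coverage of 48.9% for macroH2A1 and 18.1% for macroH2A1.2. Another ran over chromosome 21 from 39600001 to 40500000 (81.8 and 37.9%) and one more over chromosome 6 from 14000001 to 14900000 (75.2 and 26.8%). For macroH2A1.2 the longest run was that on chromosome 13 from 91300001 to 92000000 (0 against 98.3%), followed by chromosome 5 from 42500001 to 42800000 (9.9 against 27.7%) and chromosome 1 from 62200001 to 62500000 (8.87 against 33.2%). In the chromosome 1 run the sh-mH1.2 list covered 0%, unlike on chromosome 13.

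By chromosome, macroH2A1 covered more than macroH2A1.2 on 22 of 23, and the groups did not overlap on any. The ratio was highest on chromosome 10, at 1.77, with 17.4 and 17.4% covered for macroH2A1 and 10.2 and 9.41% for macroH2A1.2. Chromosome 18 followed at 1.73 (7.25 and 7.37% against 4.82 and 3.62%) and chromosome 3 at 1.58 (10.5 and 10.2% against 6.63 and 6.48%). The ratio was lowest on chromosome 13, at 0.718, with 2.21 and 2.23% for macroH2A1 and 2.44 and 3.75% for macroH2A1.2. Chromosome 7 had a ratio of 1.17 (16.7 and 16.6% against 14.3 and 14.2%) and chromosome 4 of 1.21 (6.23 and 6.16% against 5.31 and 4.89%). Chromosome 13 held 5.78% (0.909 Mb) of the macroH2A1.2-specific length and 0.680% of the macroH2A1-specific length. Those 0.909 Mb include the regions of 678.4 and 103.4 kb named above, both fully covered after sh-mH1.2. The low ratio of this chromosome therefore rests in part on 1 stretch. On a chromosome span of 115.1 Mb, the macroH2A1.2 islands at these regions were 681.2 and 178.4 kb in replicate 1. In replicate 3 they were 678.4 and 245.6 kb, with further islands beside them. Whether macroH2A1.2 would still lead there without that stretch was not tested.

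Both antibodies ranked the chromosomes alike. Mean coverages of the antibodies had a Spearman correlation of 0.964 over 23 chromosomes, and coverage followed the density of protein-coding genes (counted in GRCh38.p14) with rho of 0.801 to 0.837 in the 4 lists. These are descriptions over chromosomes that share libraries. Chromosome 19 was 30.5 and 31.3% covered for macroH2A1 and 22.3 and 20.9% for macroH2A1.2, and chromosome X 1.21 and 1.18% against 0.879 and 0.688%. The last 2 Mb at the ends of chromosomes were covered 1.70 and 1.91 times as much as the rest for macroH2A1 and 2.1 and 1.93 times for macroH2A1.2. Over the tested windows, coverage correlated at a Pearson r of 0.970 between macroH2A1 replicates, 0.961 between macroH2A1.2 replicates and 0.827 to 0.861 between antibodies (13234 windows that share libraries, given as a description).

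The antibody difference was next set beside the 4 libraries of untreated K562 made with the same antibodies in the same title sets. In the 3449 windows the median difference of macroH2A1 over macroH2A1.2 was 23.9 points under aphidicolin and 9.6 points in untreated cells, against 6.1 and 1.9 points over all tested windows. The untreated difference had the same direction in 2819 of the 3449 (81.7%), against 7928 of all 13234 tested windows (59.9%). In the 219 windows the median difference was -15.7 points under aphidicolin and -7.8 points in untreated cells, with the same direction in 174 (79.5%). Both sets of windows were picked by their difference under aphidicolin. A smaller untreated difference in them can follow from that choice and does not show an effect of treatment.

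A limma fit over the 8 libraries tested whether the difference itself changed with treatment. Of 14320 windows, 1009 (7.05%) had a larger macroH2A1 excess under aphidicolin than in untreated cells, and 449 (3.14%) a smaller one. At equal covered length the counts were 758 and 499 of 12011. List length also differed with treatment. In untreated cells islands covered 332 and 343 Mb for macroH2A1 and 286 and 242 Mb for macroH2A1.2. Under aphidicolin they covered 439 and 438 Mb, and 318 and 307 Mb. In the 1009 windows macroH2A1.2 was lower and macroH2A1 higher under aphidicolin by their medians. The macroH2A1.2 median coverage was 14.2 and 12.2% under aphidicolin and 37.2 and 32.2% in untreated cells, while that of macroH2A1 was 44.4 and 43.8% under aphidicolin and 30.4% in both untreated lists. In the 449 windows macroH2A1.2 was higher under aphidicolin, at 74.8 and 73.8% against 23.4 and 25%, while macroH2A1 stood at 90.8 and 92.0% under aphidicolin and 82.0 and 83.6% in untreated cells. These windows were picked by the same fit, so their medians describe the calls. Without untreated macroH2A1 replicate 2 the total of 1458 was 284, and without untreated macroH2A1.2 replicate 3 it was 1955. Leaving out any other of the 8 libraries gave 326 to 872. The balance of larger and smaller differences was not stable. It was 165 to 161 without untreated macroH2A1 replicate 1, 1158 to 1413 with edgeR on island reads, where the majority reversed, and 2587 to 2549 with DESeq2.

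Several of the windows with the largest aphidicolin difference were among those that changed. They were picked from aphidicolin libraries that also enter the interaction, so this overlap is only a description. The chromosome 1 window from 145000001 was 96.8 and 96.2% covered by macroH2A1.2 in untreated cells and 0% under aphidicolin, while macroH2A1 held 88.4 and 87.4% untreated (interaction 95.1 points, limma adjusted p = 0.000173). The chromosome 6 window from 15100001 was 85.8 and 87.4% covered by macroH2A1.2 in untreated cells and 4.2 and 2.6% under aphidicolin (interaction 87.6 points, limma adjusted p = 0.000325). On chromosome 22 the window from 22700001 to 22800000 differed in the macroH2A1 lists instead. MacroH2A1 covered 0% of it in both untreated lists and 100% in both aphidicolin lists, and macroH2A1.2 covered 100% in all 4 of its lists (interaction 100 points, limma adjusted p = 9.33e-05).

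The largest changes towards equal coverage were tied between a window of chromosome 3 and a window of chromosome 6. On chromosome 3 from 194500001 to 194600000 macroH2A1.2 covered 18.6 and 14.4% in untreated cells and 89.0 and 90.2% under aphidicolin, with macroH2A1 at 95.4 and 99.2% and at 98.4 and 98.0% (interaction -72.2 points, limma adjusted p = 0.00231). The chromosome 6 window from 40400001 to 40500000 showed a like pattern, with macroH2A1.2 at 9.4 and 24.8% in untreated cells and 95.6 and 87.2% under aphidicolin (interaction -72.2 points, limma adjusted p = 0.0102). So did those of chromosome 10 from 79900001, chromosome 18 from 34900001 and chromosome 1 from 37400001, with interactions of -69.2, -67.8 and -67.4 points. The chromosome 13 windows did not change. Their interaction was -7.0 to 4.2 points, with macroH2A1.2 at 81.8 to 100% and macroH2A1 at 0% in untreated cells.

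The region classes were then read in libraries that did not define them. In untreated cells macroH2A1 covered 87.6 ± 1.14% of shared sequence, 62.6 ± 1.71% of macroH2A1-specific sequence and 9.07 ± 0.603% of macroH2A1.2-specific sequence (SD, n = 2). MacroH2A1.2 in untreated cells covered 72.3 ± 1.41%, 28.4 ± 4.54% and 41.3 ± 8.09% of these classes. Each antibody covered its own specific class more than the other antibody did, in both libraries. These untreated libraries belong to the same title sets as the lists that defined the classes. Antibody and title set therefore cannot be told apart here either. The single sh-RFP library, which used the macroH2A1.2 antibody and held 75.2 (1e6) reads in islands, covered 87.8, 54.3 and 48.2%. It covered 13.8% of the span, so its ratios to the span were 6.37, 3.94 and 3.50, and the macroH2A1-specific class stood above the macroH2A1.2-specific class. In the untreated macroH2A1.2 libraries of set 2 that order was reversed, at 3.35 and 3.16 against 4.99 and 4.46.

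After sh-mH1.2 the list covered 3.34% of shared, 0.923% of macroH2A1-specific and 8.75% of macroH2A1.2-specific sequence. The ratios to the span were 4.28, 1.18 and 11.2, but 5 regions carried the order of the classes. The 5 longest macroH2A1.2-specific regions made up 74.0% of the macroH2A1.2-specific length in that list. Without the 5 longest regions of each class, an alternative added after the data were seen, the ratios were 3.47, 0.751 and 3.11, and the shared class led. By length, shared sequence made up 27.5% of the list, macroH2A1-specific sequence 3.75% and macroH2A1.2-specific sequence 5.81%.

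**Figure D5:**
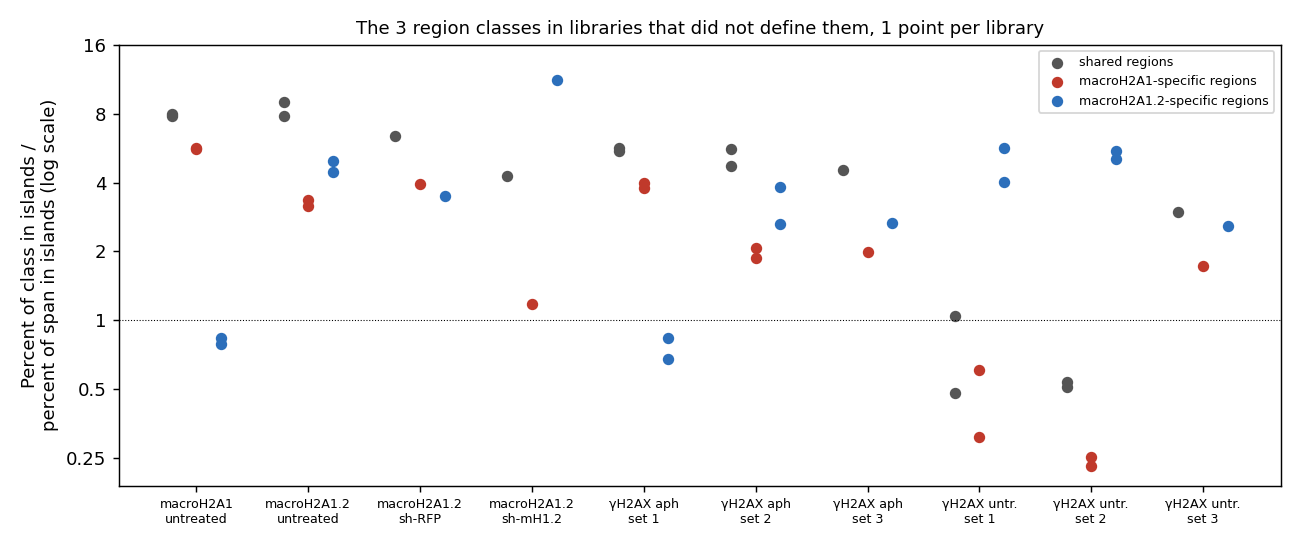
Percent of each region class inside islands divided by the percent of the span inside islands (log scale), with 1 point per library, for K562 libraries that did not define the classes. The macroH2A1.2-specific class lies below 1 in untreated macroH2A1 and in γH2AX of set 1 under aphidicolin, and above 1 in the other groups shown.

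γH2AX lists, made with 1 antibody in every title set, differed between the sets over the same classes. Under aphidicolin the macroH2A1-specific class was covered 3.98 and 3.80 times as much as the span in set 1 and 2.07 and 1.87 times in set 2. The macroH2A1.2-specific class was covered 0.842 and 0.676 times in set 1 and 2.63 and 3.83 times in set 2. The shared class stood at 5.64 and 5.48 times in set 1 and 4.74 and 5.59 times in set 2. The log2 difference of set 1 over set 2 was 0.98 for the macroH2A1-specific class, -2.07 for the macroH2A1.2-specific class and 0.11 for the shared class. The exact permutation p was 0.33, 0.33 and 0.67 (n = 2 each), and 0.33 is the smallest possible. For both specific classes the sets did not overlap and differed in the direction of the macroH2A lists of the same set. Set 3, with 1 library, had 1.99 and 2.66 times for the specific classes.

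The same held in windows. Both γH2AX lists of set 1 lay above both of set 2 in 1396 of the 3449 windows higher for macroH2A1 (40.5%), in 26 of the 219 windows higher for macroH2A1.2 (11.9%), and in 3393 of all 13234 windows (25.6%). The reverse held in 114 (3.31%), 54 (24.7%) and 951 (7.19%). In the chromosome 1 window from 145000001, for example, γH2AX covered 98.8 and 97.8% in set 1 and 3.0 and 3.0% in set 2. In the chromosome 3 window from 193600001 it covered 57.2 and 47.8% in set 1 and 0% in set 2. Other named windows did not follow this. The chromosome 9 window from 133600001, higher for macroH2A1, had 93 and 93% in set 1 and 94.8 and 0% in set 2. The chromosome 1 window from 142900001, higher for macroH2A1.2, had 67.8 and 67.8% in set 1 and 0 and 59.4% in set 2. The share of the antibody difference that goes with the title set was not tested.

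In untreated cells γH2AX of sets 1 and 2 had its highest ratio on another class. The macroH2A1.2-specific class was covered 4.04 to 5.65 times as much as the span in these 4 libraries, the shared class 0.483 to 1.04 times and the macroH2A1-specific class 0.230 to 0.607 times. The 5 longest macroH2A1.2-specific regions held 45.4 to 60.6% of the macroH2A1.2-specific length covered there. Without the 5 longest regions of each class the ratios were 1.70 to 2.96 for the macroH2A1.2-specific class, 0.486 to 1.05 for the shared class and 0.208 to 0.609 for the macroH2A1-specific class. Under aphidicolin the shared class led in each of the 4 γH2AX libraries of these sets. The library of set 3 in untreated cells differed from the other 4, with 2.97, 1.73 and 2.59 times for the shared, macroH2A1-specific and macroH2A1.2-specific classes.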

How the data were processed

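Chromatin was crosslinked and cut with micrococcal nuclease, per the labels' protocols. The authors deposited 1 island list per library, and its values are whole-number read counts per island, not scaled to depth. Bowtie2 2.1.0, SICER 1.1, deepTools and hg19 are listed, with no role, by the submitters' processing notes. The names of the deposited lists give 200 bp windows, 600 bp gaps and an FDR of 0.01. No source used here states how input was used. The 14 input libraries were not analysed here.

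Islands on chromosomes 1 to 22 and X were kept, over a span of 3035 Mb. All edges lay on the 200-bp grid. Replicate lists had at most 9 islands with equal edges and reads, so each counted as a library. Depth can be stated only as reads in islands, from 10.2 to 48.7 in units of 1e6 in the 4 lists, and no interval from counts is given for a covered length. Coverage of 30367 windows of 100 kb was fitted with limma 3.58.1 in R 4.3.3, without windows covered in fewer than 2 libraries, with Benjamini-Hochberg adjustment at 0.05. It was tested on simulated data. Single values per library were compared by exact permutation, two-sided, with SciPy 1.17.1. The 8 libraries of the treatment fit share replicate numbers within an antibody, but same-numbered libraries did not deviate together (correlations 0.00837 and -0.0903), so no block was used.

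Named windows were the 10 with the largest difference in each direction among called windows whose groups did not overlap. Named regions were the 5 longest of each class, and named chromosomes the 3 highest and 3 lowest ratios. The libraries, classes and rules were chosen with earlier results of these data known. Alternatives were equal covered length, in which each list kept its densest islands up to the shortest list, islands of at least 2 kb, the upper 50% of islands by density, autosomes only, an arcsine scale, no filter, 200-kb windows, other overlaps, each library left out, edgeR 4.0.16 and DESeq2 1.42.0 on island reads shared over windows and rounded. Gene positions at hand belong to another build (GRCh38.p14), so regions were not placed on genes, no sequence was read, and that table served only to count protein-coding genes by chromosome.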

Additional observations from a re-analysis of the deposited data

Results flagged for a closer look

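The antibody difference was not the same in aphidicolin and in untreated cells, as tested by the interaction in a limma fit over 8 libraries at an adjusted p of 0.05. It was larger in favour of macroH2A1 under aphidicolin in 1009 windows and smaller in 449 windows of 14320. At equal covered length the counts were 758 and 499 of 12011. This balance was not stable: edgeR on island reads gave 1158 and 1413, DESeq2 2587 and 2549, and the fit without untreated macroH2A1 replicate 1 gave 165 and 161.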

How the results depend on the processing

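The ratios of covered length and of reads per kb kept their direction in all alternatives run for them. The log2 ratio of island number (0.17) was -0.68 at equal covered length and -0.065 to 0.41 with 1 library left out, falling below 0 without macroH2A1.2 replicate 3. That of median width (0.14) was -0.10 to 0.38, below 0 without macroH2A1.2 replicate 1. Shared, macroH2A1-specific and macroH2A1.2-specific length (194.6, 96.3 and 15.7 Mb) were 164.3, 47.4 and 38.8 Mb at equal covered length, 129.1, 74.8 and 11 Mb for the upper 50% of islands, and 157.6, 85.3 and 12.3 Mb without windows listed after sh-mH1.2. With 1 library left out they ranged over 204.2 to 239.2, 129.3 to 141.1 and 25.4 to 42.0 Mb, since fewer lists then define a class. The sh-RFP coverage of the macroH2A1.2-specific class (48.2%) was 57.1%, 50.0% and 51.0% in the first 3 of these settings, 51.6% without the 5 longest regions of each class and 35.1 to 57.6% with 1 library left out. Bases shared between antibodies (50.6%) were 48.9% for the upper 50% of islands. MacroH2A1 islands shared (47.5%) were 59.6% at equal length, 41.0% for the upper 50%, 60.7% at an overlap of 1 base and 19.97% at 90%. MacroH2A1.2 islands shared (77.5%) were 56.6, 72.4, 84.0 and 54.7% in that order. Windows higher for macroH2A1 (3449) numbered 1185 at equal length, 2056 for the upper 50%, 2043 with edgeR and 0 to 1373 with 1 library left out. Windows higher for macroH2A1.2 (219) numbered 944 at equal length, 505 on the arcsine scale, 1284 with edgeR, 2682 with DESeq2 and 0 to 55 with 1 library left out. Windows whose antibody difference changed with treatment (1458) numbered 953 for the upper 50%, 2571 with edgeR, 5136 with DESeq2, 284 to 1955 with 1 library left out, and 151 with a replicate block (84 larger and 67 smaller). No paired analysis was possible between the antibodies under aphidicolin because the groups share only replicate number 1. Except where stated, the cause was not tested. What sequencing depth limits cannot be stated from these lists, which hold only reads in islands.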
